A study of Mus musculus with 5 samples.

Results

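The Agrin-MuSK genes build the postsynaptic side of the neuromuscular junction (NMJ), the synapse between a motor axon and a muscle fiber. The members were fixed by gene name as Musk, Lrp4, Dok7, Rapsn, Agrn, Colq, Ache, Utrn, Etv5 and Prkar1a, and all 10 were found among the 17015 genes of the table. Transcript levels were measured by RNA-seq in tibialis anterior (TA), a fast-twitch muscle of the lower leg, of sedentary 8-week-old male mice. There were 3 WT control libraries (genotype label Ctrl) and 2 libraries labelled skmNrip1-/- (genotype label Nrip1KO). The skmNrip1-/- mice carry Nrip1 fl/fl alleles and a Cre recombinase driven by the myogenin promoter, which is active in skeletal muscle, and the controls are Cre-negative littermates by the study's methods. Nrip1 encodes RIP140, a coregulator of nuclear receptors, and the floxed segment holds its coding sequence. The comparison asks how the transcripts of these synapse genes differ between muscle with and without this deletion.

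Agrin is released by the motor axon and binds LRP4 on the muscle surface, and LRP4 then activates the receptor tyrosine kinase MuSK. DOK7 binds MuSK inside the fiber and is needed for its full activity, and rapsyn, the product of Rapsn, clusters acetylcholine receptors beneath the nerve ending. Nuclei close to the synapse transcribe several of these genes more than other nuclei of the same fiber. In a whole muscle, a change in the number of such nuclei and a change in the RNA made per nucleus cannot be told apart.

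Musk had the largest difference of the members. In WT control TA its mean was 1.45 ± 0.338 FPKM (SD, n = 3), and the libraries labelled skmNrip1-/- had a mean of 3.39 ± 0.128 FPKM (SD, n = 2), 2.35 times the WT control mean. FPKM are fragment counts scaled by transcript length and by the depth of the library. How the deposited values were scaled is not given in the sources used here. The other 9 members had ratios of group means from 0.776 for Ache to 1.05 for Utrn. No member was called by limma, a linear model fitted across all genes, against 0.453% of the 12148 genes tested. Calls needed both a Benjamini-Hochberg adjusted p up to 0.05 and a change of 1.2 times or more.

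All 10 members had a mean of at least 0.5 FPKM and were tested. Over all tested genes, 45 (0.370%) were called higher and 10 (0.0823%) lower in the libraries labelled skmNrip1-/-. An unadjusted p of 0.05 or less was reached by 2 members, Musk upward and Ache downward, beside 6.57% of tested genes upward and 5.33% downward. When each library was rescaled to the same FPKM sum (TPM), 29 were called higher and 59 lower, and the median over tested genes moved from -0.00 to -0.29 on the log2 scale. The targeted gene went against its label. Nrip1 (ENSMUSG00000048490) was at 4.64 to 7.69 FPKM in WT control TA and at 22.5 and 25.3 FPKM in the libraries labelled skmNrip1-/-, which limma called higher at 1.94 ± 0.21 on the log2 scale (standard error, adjusted p = 0.0261). This call was lost without WT control replicate 3 or without either library labelled skmNrip1-/- (adjusted p from 0.114 to 0.189), without the variance trend (adjusted p = 0.0769) and with the replicate number as a block (adjusted p = 0.128). The log2 fold change of Nrip1 stayed positive under every alternative, between 1.64 and 2.09. The Nrip1 value is for the whole gene, so RNA of the floxed segment cannot be separated from RNA of its other exons. The cause of the higher value was not tested. Every direction below therefore rests on the labels. The absolute depth is unknown, and steps between low FPKM values gave depths from 0.818 to 1.11 relative to WT control replicate 1.

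The stretch upstream of the start site is shown for Musk, the member with the largest difference, for Ache, the member with the lowest ratio, and for Dok7 and Etv5 as a signaling partner and a transcription factor of the same junction. Capitals mark CAGCTG, an E-box bound by myogenic factors. CAGCTG was searched with CCGGAA, the N-box of synaptic promoters bound by ETS factors, and AAGGTCA, a motif bound by estrogen-related receptors, on both strands, and none of these motifs contains another. Each sequence is the 250 bases before a RefSeq start, 5′ to 3′ on the gene's strand in GRCm38.p6. The Ache stretch lies inside the gene as annotated in GENCODE M21, and the 3′ ends of the Musk and Etv5 stretches reach into theirs. Musk is on the plus strand at chr4:58285712-58285961, Dok7 on the plus strand at chr5:35056516-35056765, Ache on the plus strand at chr5:137288004-137288253 and Etv5 on the minus strand at chr16:22439571-22439820.
Musk: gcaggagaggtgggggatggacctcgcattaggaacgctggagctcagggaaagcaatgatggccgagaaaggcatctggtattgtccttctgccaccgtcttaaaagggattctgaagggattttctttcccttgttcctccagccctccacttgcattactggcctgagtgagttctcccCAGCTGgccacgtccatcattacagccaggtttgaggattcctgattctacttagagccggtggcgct
Dok7: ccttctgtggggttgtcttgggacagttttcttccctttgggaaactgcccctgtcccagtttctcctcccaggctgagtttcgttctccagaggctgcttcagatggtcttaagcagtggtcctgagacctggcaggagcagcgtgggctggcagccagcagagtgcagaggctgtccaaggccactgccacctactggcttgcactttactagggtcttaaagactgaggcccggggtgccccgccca
Ache: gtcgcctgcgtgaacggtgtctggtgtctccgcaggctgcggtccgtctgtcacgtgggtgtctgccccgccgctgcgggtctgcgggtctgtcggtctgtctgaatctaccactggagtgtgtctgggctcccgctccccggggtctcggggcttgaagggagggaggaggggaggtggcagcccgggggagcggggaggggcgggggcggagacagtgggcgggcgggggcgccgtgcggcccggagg
Etv5: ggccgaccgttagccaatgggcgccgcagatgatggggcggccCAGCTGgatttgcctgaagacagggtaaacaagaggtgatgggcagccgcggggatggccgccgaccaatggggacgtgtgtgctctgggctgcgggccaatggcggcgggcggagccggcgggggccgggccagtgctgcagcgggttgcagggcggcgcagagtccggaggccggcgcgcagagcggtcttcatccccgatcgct

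RefSeq windows from 250 bases before to 50 after a start were matched for 7 members, with 15 windows in all, and the sequences of Lrp4, Rapsn and Colq were not used here. The E-box letters CAGCTG were in 4 of the 15 windows, which belong to Musk, Etv5 and Prkar1a, against 16.3% of all 32851 windows. The match in Musk begins 68 bases before the start, and that in Etv5 begins 207 bases before it. The letters CCGGAA were in 1 of the 15 windows, a Prkar1a window, against 14.9% of all windows. AAGGTCA was in none of the 15, against 4.72% of all windows. Any link between these motifs and the levels of the members was not tested.

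By FPKM, a level per length, the members of WT control TA ran from Prkar1a at 42.8 FPKM down to Musk at 1.45 FPKM. Ache followed Prkar1a at 19.7, then Dok7 at 13.2, Rapsn at 8.86 and Agrn at 4.58 FPKM, each below the one before it in every library. Below them came Utrn at 3.81, Etv5 at 3.38, Lrp4 at 2.37 and Colq at 2.10 FPKM. Agrn and Utrn, Utrn and Etv5, Lrp4 and Colq, and Colq and Musk overlapped between libraries in that order, and Etv5 stood above Lrp4. In the libraries labelled skmNrip1-/-, Musk stood in place 7 and not 10, above Etv5, Lrp4 and Colq in both libraries. The order of the other 9 was kept except that Utrn and Agrn, both at 3.99 FPKM, changed places. Ache and Dok7 overlapped there.

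**Figure D1:**
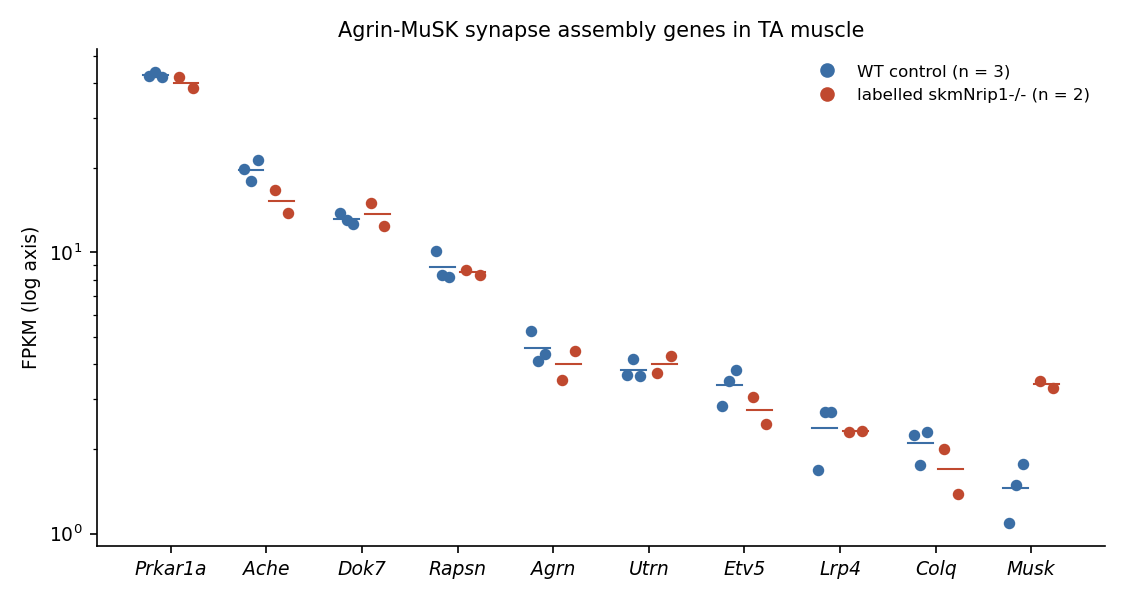
FPKM of the 10 members on a log axis, with WT control libraries in blue, libraries labelled skmNrip1-/- in red and a line at each group mean, ordered by the WT control mean. Musk lies at 1.09 to 1.76 FPKM in WT control TA and at 3.30 and 3.49 FPKM in the libraries labelled skmNrip1-/-, while Ache and Prkar1a are lower without overlap and the other 7 members overlap between the groups.

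The ligand was not called. Agrn (ENSMUSG00000041936), on the minus strand of chromosome 4 from 156165290 to 156197488 in GENCODE M21 on GRCm38, encodes agrin. Agrn was at 5.25, 4.12 and 4.36 FPKM across WT control replicates 1 to 3, against 3.53 and 4.45 FPKM in the libraries labelled skmNrip1-/-. The groups overlapped, and replicate 1 labelled skmNrip1-/- was the lowest of the 5 libraries. On the log2 scale the difference was -0.20, with a 95% interval from -0.59 to 0.20 (adjusted p = 0.72 from limma). Agrin is made by motor axons, muscle and other cells, and the table gives 1 value per gene, so its splice forms cannot be separated.

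The receptors are MuSK and LRP4, and neither was called. Musk (ENSMUSG00000057280) lies on the plus strand of chromosome 4 from 58285960 to 58374303, with 8 annotated transcripts, the longest of 3422 nucleotides in 16 exons. Musk was at 1.09, 1.49 and 1.76 FPKM across WT control replicates 1 to 3, against 3.49 and 3.30 FPKM in the libraries labelled skmNrip1-/-. Both libraries labelled skmNrip1-/- were above all WT control libraries, a pattern that 15.8% of tested genes showed in this direction. The log2 fold change on log2(FPKM + 0.1) was 1.2 (standard error 0.22, 95% interval 0.68 to 1.72). Its unadjusted p was 0.00106, the 113th smallest of the tested genes, and the adjusted p was 0.11 from limma, so Musk was not called. Over the 14 alternatives, the Musk value stayed between 0.85 and 1.34 and the adjusted p between 0.0871 and 0.464.

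Lrp4 (ENSMUSG00000027253), on the plus strand of chromosome 2 from 91457511 to 91513779, encodes the receptor that agrin binds. It was at 1.68, 2.71 and 2.71 FPKM across WT control replicates 1 to 3, against 2.30 and 2.31 FPKM in the libraries labelled skmNrip1-/-. Both of the latter lay within the WT control range. The log2 difference was -0.00, with a 95% interval from -0.56 to 0.55, the widest of the members. WT control replicate 1 was the lowest library for both Lrp4 and Musk.

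Inside the fiber, the adaptor DOK7 and the receptor-clustering rapsyn had transcript means close to those of WT control TA. Dok7 (ENSMUSG00000044716, plus strand of chromosome 5, 35056766 to 35087839) was at 13.8, 13.0 and 12.6 FPKM across WT control replicates 1 to 3, against 15.0 and 12.4 FPKM in the libraries labelled skmNrip1-/-. Replicates 1 and 2 labelled skmNrip1-/- were the highest and the lowest of the 5 libraries. Its log2 fold change was 0.05, with a 95% interval from -0.24 to 0.35.

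Rapsn (ENSMUSG00000002104, plus strand of chromosome 2, 91035620 to 91045729) was at 10.1, 8.31 and 8.17 FPKM in WT control TA and at 8.66 and 8.30 FPKM in the libraries labelled skmNrip1-/-. WT control replicate 1 was above the other 4 libraries, which lay close together. The log2 fold change of Rapsn was -0.06, with a 95% interval from -0.37 to 0.26.

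**Figure D2:**
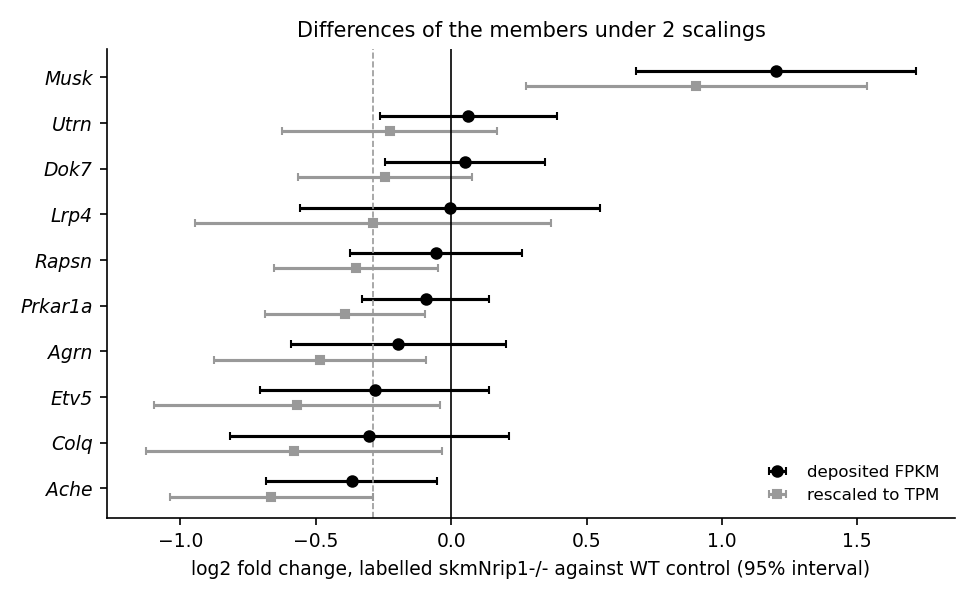
Log2 fold change of each member (horizontal axis) with its 95% interval from limma, on the deposited FPKM (black circles) and after rescaling to TPM (grey squares). The lines mark the median of all tested genes at each scaling, -0.00 (black) and -0.29 (grey dashes), and the interval of Musk lies above both, while on the deposited FPKM the intervals of the other members except Ache hold 0.

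Acetylcholinesterase, the enzyme that ends transmission by breaking down acetylcholine, was the member with the lowest ratio. Ache (ENSMUSG00000023328, plus strand of chromosome 5, 137287519 to 137294466) was at 19.8, 18.0 and 21.2 FPKM across WT control replicates 1 to 3, against 16.7 and 13.8 FPKM in the libraries labelled skmNrip1-/-. Both libraries labelled skmNrip1-/- were below all WT control libraries, as in 14.4% of tested genes. The log2 fold change was -0.37 (standard error 0.13, 95% interval -0.68 to -0.05), with an unadjusted p of 0.0288 and an adjusted p of 0.351 from limma. Ache was not called. With TPM its log2 difference was -0.66, which is -0.37 relative to the median of tested genes.

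Colq (ENSMUSG00000057606, minus strand of chromosome 14, 31523082 to 31591343) encodes the collagen tail that anchors this enzyme in the synaptic basal lamina and also binds MuSK. Colq was at 2.24, 1.76 and 2.29 FPKM across WT control replicates 1 to 3, against 2.01 and 1.39 FPKM in the libraries labelled skmNrip1-/-. The groups overlapped, with replicate 2 labelled skmNrip1-/- the lowest library. Colq differed by -0.30 on the log2 scale, with a 95% interval from -0.82 to 0.21.

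A further pair of genes was fixed as partners of the cholinesterases. Prima1, which encodes a membrane anchor of acetylcholinesterase, was at 6.75, 3.89 and 7.20 FPKM in WT control TA and at 1.87 and 3.42 FPKM in the libraries labelled skmNrip1-/-. The groups did not overlap, and the log2 fold change was -1.15 (unadjusted p = 0.0125 and adjusted p = 0.273 from limma). Bche, the gene of butyrylcholinesterase, had a log2 fold change of 0.40, and neither gene was called.

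The remaining members cover the synaptic cytoskeleton, transcription and cAMP signaling. Utrn (ENSMUSG00000019820, minus strand of chromosome 10, 12382188 to 12869365) encodes utrophin, a relative of dystrophin concentrated at the synapse. Utrn was at 3.65, 4.16 and 3.63 FPKM in WT control TA and at 3.72 and 4.27 FPKM in the libraries labelled skmNrip1-/-, and the groups overlapped. Its log2 fold change was 0.06, with a 95% interval from -0.26 to 0.39.

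Etv5 (ENSMUSG00000013089, minus strand of chromosome 16, 22381309 to 22439719) encodes an ETS transcription factor, also called ERM, that is found in synaptic nuclei. Etv5 was at 2.85, 3.50 and 3.80 FPKM in WT control TA and at 3.06 and 2.46 FPKM in the libraries labelled skmNrip1-/-. Replicate 2 labelled skmNrip1-/- was the lowest of the 5 libraries, and the groups overlapped. The log2 fold change was -0.28, with a 95% interval from -0.71 to 0.14.

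Prkar1a (ENSMUSG00000020612, plus strand of chromosome 11, 109649405 to 109669656) encodes the type I alpha regulatory subunit of protein kinase A. Its values were 42.4, 43.8 and 42.0 FPKM in WT control TA and 41.8 and 38.3 FPKM in the libraries labelled skmNrip1-/-. The groups did not overlap, although replicate 1 labelled skmNrip1-/- lay just under the lowest WT control library, and the log2 fold change was -0.09, with a 95% interval from -0.33 to 0.14. Among the members, 1 was without overlap and higher (Musk) and 2 were without overlap and lower (Ache and Prkar1a), beside 15.8% and 14.4% of tested genes.

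Ratios within a library do not depend on how libraries were scaled to each other, and those with Musk as numerator did not overlap between the groups. The ratio of Musk to Lrp4 was 0.647, 0.551 and 0.651 across WT control replicates 1 to 3, against 1.51 and 1.43 in the libraries labelled skmNrip1-/-. Musk was thus below Lrp4 in all WT control libraries and above it in both others. The mean log2 ratio differed by 1.26 between the groups.

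The ratio of Musk to Dok7 lay between 0.0787 and 0.140 in WT control TA, against 0.232 and 0.267 in the libraries labelled skmNrip1-/-, a log2 difference of 1.2. The ratio of Musk to Rapsn lay between 0.108 and 0.216 in WT control TA, against 0.402 and 0.398 in the others, a log2 difference of 1.31. Each of the 3 Musk ratios had a two-sided exact permutation p of 0.20, the smallest that 10 splits of these libraries can give (adjusted p = 0.333 over the 5 pairs). These 3 ratios share the Musk values.

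The ratios without Musk overlapped between the groups. Agrn to Lrp4 was 3.12, 1.52 and 1.61 in WT control TA and 1.53 and 1.93 in the libraries labelled skmNrip1-/- (log2 difference -0.20, exact permutation p = 1, n = 3 and 2). Colq to Ache was 0.113, 0.0978 and 0.108 in WT control TA and 0.12 and 0.1004 in the others (log2 difference 0.05, exact permutation p = 0.80, n = 3 and 2). The highest Colq to Ache ratio was that of replicate 1 labelled skmNrip1-/-.

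**Figure D3:**
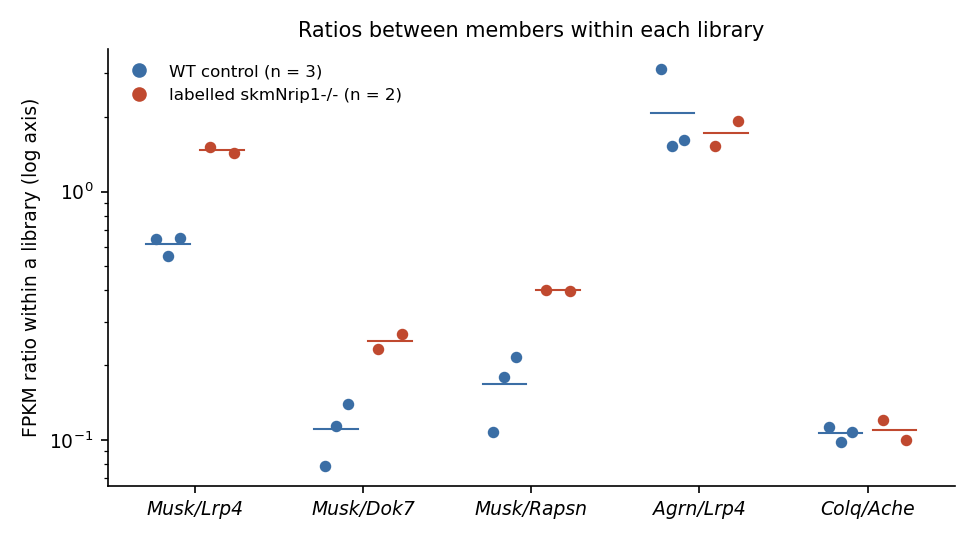
Ratio of FPKM between 2 members within each library on a log axis, with WT control in blue, libraries labelled skmNrip1-/- in red and a line at each group mean. The 3 ratios with Musk as numerator are higher in both red libraries than in the 3 blue ones, and the ratios Agrn to Lrp4 and Colq to Ache overlap.

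The acetylcholine receptor, which these proteins cluster, is built from the subunits of Chrna1, Chrnb1, Chrnd and Chrne in adult muscle, and from Chrng in place of Chrne before birth. The 4 adult subunits had log2 fold changes from -0.27 for Chrnd to 0.20 for Chrna1, with Chrnb1 at 0.06 and Chrne at -0.04, and none was called. Chrng was at 0.0410, 0.0298 and 0.0163 FPKM in WT control TA and at 0.193 and 0.301 FPKM in the libraries labelled skmNrip1-/-. These values are under the minimum for testing, and without a minimum the adjusted p of Chrng was 0.12 from limma. On a transcript with 1 kb of effective length, 1 fragment was worth 0.0192 to 0.026 FPKM, so the WT control values of Chrng rest on very few fragments.

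The wider pathway was read through lists of genes. Of 19 signaling partners of MuSK, including kinases, small GTPases and adaptors, none was called, and their median log2 fold change was 0.03 beside -0.00 over all tested genes. Dnaja3, which encodes the MuSK-binding cochaperone Tid1, was the highest, at 43.5, 50.2 and 44.2 FPKM in WT control TA and 61.0 and 59.5 FPKM in the libraries labelled skmNrip1-/-. Its groups did not overlap, at a log2 difference of 0.39 (limma, adjusted p = 0.249). Src, a kinase downstream of MuSK, was the lowest at -0.59, with overlapping groups and values from -0.99 to -0.29 when 1 library was left out.

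Of 9 genes of neuregulin signaling and ETS factors, 7 were tested and none was called, with a median log2 fold change of 0.21. The median was 0.067 without WT control replicate 1, 0.13 without replicate 1 labelled skmNrip1-/- and -0.076 with TPM. They ran from -0.37 for Erbb2, a neuregulin coreceptor, to 0.32 for Gabpb1, a subunit of the ETS factor GABP, whose value lay between 0.089 and 0.55 when 1 library was left out. Of 16 genes of the synaptic basal lamina and the dystroglycan complex, 15 were tested and none was called, with a median of -0.10, which was -0.23 without WT control replicate 1, -0.041 without WT control replicate 3 and -0.40 with TPM. Sntb1, which encodes a syntrophin, was the lowest at -0.92 and did not overlap between groups, with 0.974, 1.34 and 1.32 FPKM in WT control TA and 0.489 and 0.704 FPKM in the others (adjusted p = 0.25 from limma). Dag1, the gene of dystroglycan, was the highest at 0.24. The other protein kinase A subunits ran from -0.20 for Prkar1b to 0.18 for Prkacb, with 4 of 5 tested and none called.

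A further list holds NMJ genes that the study names, some from RNA of another fast muscle (EDL) of mice with an MCK-driven Cre. Some lie near a raised histone mark of enhancers in cultured myotubes lacking Nrip1 and were also raised in gastrocnemius RNA of such mice. Of the 10 analysed here, 6 were tested, all 6 were above 0 and without overlap between the groups, beside 15.8% of tested genes higher without overlap, and the median log2 fold change was 0.56. Over the whole table, with genes under the minimum, 9 of the 10 were higher without overlap, beside 14.3% of all genes. The median was 0.90 with no minimum and 0.26 with TPM. The study names these genes, and Musk too, from other samples lacking Nrip1. It also reports on TA of skmNrip1-/- mice, and whether that bore on the choice is not stated. Of those tested, Chrna4 and Slc16a7 passed the minimum of 0.5 FPKM only through the libraries labelled skmNrip1-/-. Slc16a7 is named here after its values were seen. Their WT control means were 0.201 and 0.399 FPKM, so their place among the tested genes depended on their being higher in the other group. Chrna4, a neuronal-type acetylcholine receptor subunit, was the 1 called gene, beside 0.370% of tested genes called higher. It was at 0.185, 0.272 and 0.146 FPKM in WT control TA and at 1.35 and 1.96 FPKM in the libraries labelled skmNrip1-/-, which limma placed 2.54 ± 0.33 higher on the log2 scale (standard error, adjusted p = 0.0403). The call was lost without WT control replicate 1, 2 or 3 or without replicate 1 labelled skmNrip1-/- (adjusted p from 0.0501 to 0.203), and without replicate 2 labelled skmNrip1-/- the mean fell under the minimum. Chrna4 was also not called with a pseudocount of 0.01 (adjusted p = 0.055) or with the replicate block (adjusted p = 0.169).

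Pde4a, a cAMP phosphodiesterase gene, had the lowest log2 fold change tested in that list, 0.26, and Chrna4 the highest. The 4 genes under the minimum were Chrna2, Unc13c, Wnt16 and Bdnf, named here after their values were seen. Unc13c, which encodes a synaptic vesicle priming protein, was at 0.0191, 0.0712 and 0.0118 FPKM in WT control TA and at 0.891 and 0.910 FPKM in the libraries labelled skmNrip1-/-. Chrna2 was at 0.0374, 0.108 and 0.0621 FPKM and at 0.844 and 0.680 FPKM, respectively.

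With no minimum, limma called Unc13c (adjusted p = 0.0198) and Chrna2 (adjusted p = 0.0438) higher, and not Wnt16 (adjusted p = 0.213) or Bdnf (adjusted p = 0.808). At that setting 39 of all 17015 genes were called higher. Neither call was rerun at that setting with a library left out, and the WT control values of both genes are near 0. Wnt16, a secreted Wnt ligand gene, was at 0.195, 0.110 and 0.0987 FPKM in WT control TA and at 0.463 and 0.394 FPKM in the libraries labelled skmNrip1-/-. Bdnf was the 1 gene of the 10 whose groups overlapped.

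**Figure D4:**
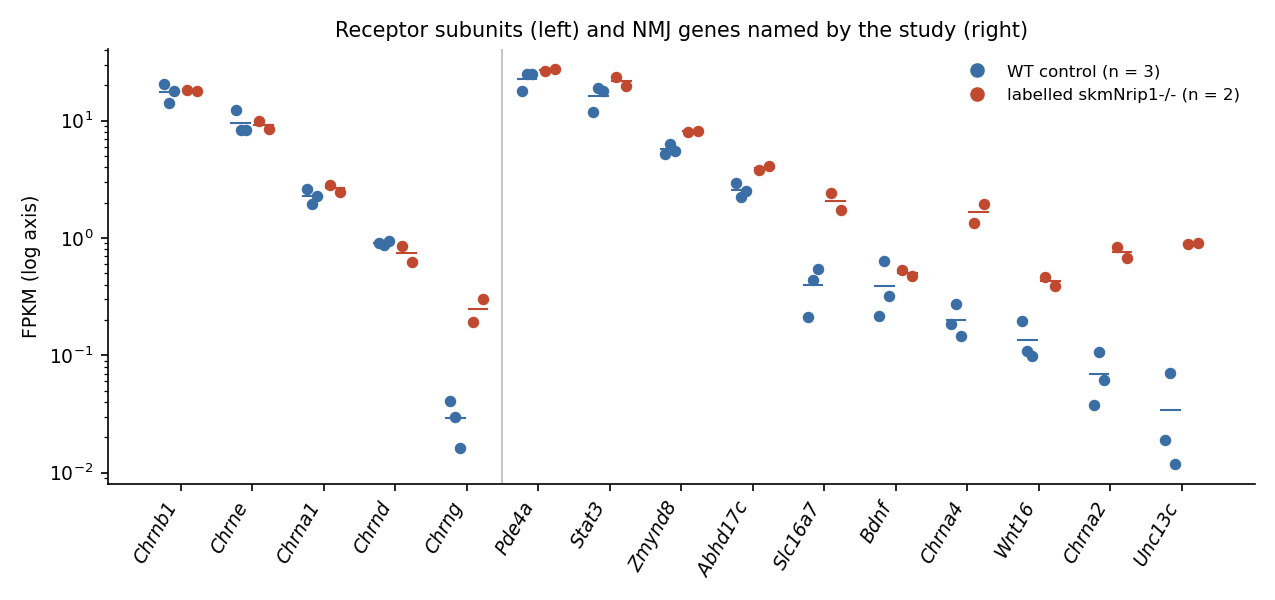
FPKM on a log axis of the 5 acetylcholine receptor subunits (left of the line) and the 10 NMJ genes of that list (right), with WT control in blue, libraries labelled skmNrip1-/- in red and a line at each group mean. Chrna1, Chrnb1 and Chrne overlap between groups, and 9 of the 10 genes on the right and Chrng are higher in both red libraries than in the blue ones, a pattern shown by 14.3% of all genes of the table.

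Denervation raises Musk and moves other genes up or down, and a list of denervation-responsive genes was examined. The list was not divided by that direction, so its median does not show a shift toward or away from denervation. Of 11 denervation-responsive genes, 9 were tested and none was called, with a median log2 fold change of 0.34. This median was -0.10 with no minimum, 0.12 with a minimum of 1 FPKM and 0.047 with TPM, and it was 0.22 without WT control replicate 1 or without replicate 1 labelled skmNrip1-/-. Myog, the gene of the transcription factor myogenin, was the lowest at -0.43, at 1.66, 1.22 and 1.05 FPKM in WT control TA and 0.868 and 0.994 FPKM in the libraries labelled skmNrip1-/-. Ncam1, the neural cell adhesion molecule gene, was the highest at 1.75 but rested on 1 library, with 4.60, 1.33 and 1.90 FPKM in WT control TA and 4.35 and 14.2 FPKM in replicates 1 and 2 labelled skmNrip1-/-. Its value was 0.91 without replicate 2 labelled skmNrip1-/-.

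The 5 tested genes whose library values were most like those of Musk were found by the root mean square distance of centred log2 values over the 5 libraries. These were Wfs1 (0.0897), Tlnrd1 (0.102), Gm7039 (0.127), Polr1a (0.132) and Dgat2 (0.146). They were matched to Musk values that differ between the groups, so a rise in them follows from the choice and is no separate result. Gm7039, at 0.177 to 0.358 FPKM in WT control TA, passed the minimum only through the libraries labelled skmNrip1-/-. Wfs1, which encodes an endoplasmic reticulum membrane protein, lay between 21.7 and 28.3 FPKM in WT control TA, against 62.8 and 59.9 FPKM in the libraries labelled skmNrip1-/-, and was called higher (log2 fold change 1.27, adjusted p = 0.0252 from limma). Dgat2, a triglyceride synthesis enzyme gene, ran from 16.9 to 27.2 FPKM and was at 49.2 and 45.6 FPKM, respectively.

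The tissue label was checked with markers. The 7 fast muscle markers summed to 65495 to 96853 FPKM and the 6 slow muscle markers to 79.6 to 307 FPKM. Red blood cell markers moved with the groups, with sums of the 5 markers of 511 to 764 FPKM in WT control TA and 827 and 996 FPKM in the libraries labelled skmNrip1-/-, and 4 of the 5 without overlap, beside 15.8% of tested genes. Fast muscle sums were 70899.5 to 96853 FPKM in WT control TA and 65495 and 67791 FPKM in the others, slow muscle sums were 109.9 to 307 and 79.6 to 90.1 FPKM, respectively, and sums of the 3 satellite cell markers were 1.02 to 1.27 and 0.820 to 0.997 FPKM. Of the slow markers, Myl3, named here after its values were seen, was the 1 without overlap, and the other 5 summed to 20.3 to 22.0 FPKM in WT control TA and 25.4 and 18.8 FPKM in the others, which overlap. The part of these marker differences in those of Musk and Ache was not tested.

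Cells around the junction were also followed. The summed level of the 7 Schwann cell markers was 28.3 to 42.0 FPKM in WT control TA and 25.4 and 35.5 FPKM in the libraries labelled skmNrip1-/-. Prph, the 1 motor axon marker of 6 analysed here, was at 0.388 to 1.04 and at 0.324 and 1.85 FPKM. Sums of endothelial, fibroblast, macrophage and adipocyte markers also overlapped between the groups, and no marker of any list was called.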

How the data were processed

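RNA-seq libraries of TA muscle were grouped by their genotype labels, and each column was assigned to 1 library by its label. Per the study's methods and the labels, the authors quantified 150-bp paired-end reads with Salmon 1.10.2 on mm10 and used tximport to sum transcripts by gene. Values deposited by the authors are FPKM per gene and library, computed by means not given in the sources used here. Their median of ratios was 1.00171 in each of the 5 libraries, while the FPKM sums ran from 969144 to 1288040. The deposited libraries were thus already on the same median of ratios, and rescaling by it could change little. One gene of the study's NMJ list is not reported here. The table also holds the authors' fold changes and adjusted p-values, which were not used.

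The groups were compared on log2(FPKM + 0.1), for genes averaging 0.5 FPKM or more, by 1 limma 3.58.1 model (R 4.3.3, eBayes with a mean-variance trend) of all 5 libraries without covariates. P-values were adjusted over all 12148 tested genes. The added 0.1 shrinks the fold changes of low genes. The study's methods use a model of counts, which FPKM do not allow. The 5 ratios were compared with exact permutation tests (scipy 1.17.1). Positions and transcript lengths came from GENCODE M21 (GRCm38), and sequences from RefSeq on GRCm38.p6. One-fragment steps were read from genes with 1 transcript longer than 1500 nucleotides, after subtracting 200 nucleotides. The limma step was tested on simulated data.

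Members and lists were chosen with earlier results of these data known. The genes named are the members, Nrip1, the receptor subunits, the highest and lowest tested gene of each other list, every called gene of the non-marker lists and the 5 genes nearest to Musk. The study's supplement gives equal group sizes for TA of this line, while 3 WT control libraries and 2 libraries labelled skmNrip1-/- were analysed here. Separate mice per library are not stated in the labels, so p-values measure the spread between these libraries, which may be technical. Other settings tried were pseudocounts of 1 and 0.01, dropping the minimum or raising it to 1 FPKM, rescaling to TPM or by the median of ratios, eBayes without trend or robust, the replicate number as a block, leaving out each library, calls by adjusted p alone, and a stricter adjusted p of 0.01.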

Additional observations from a re-analysis of the deposited data

How the results depend on the processing

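No member was called under any alternative run, and 132 of the 140 alternative log2 fold changes of the members kept their sign. Many of these signs were fixed in advance, so the count overstates how much was tried. The eBayes settings and the minimum cannot change a log2 fold change, and the median of ratios was the same in all libraries. The replicate block gave the same log2 fold changes as leaving out WT control replicate 3. The values with the other sign were all of members near 0. With TPM, Dok7 was at -0.24 and Utrn at -0.23, where all tested genes had a median of -0.29, and relative to that median Musk was at 1.2 and Ache at -0.37. Leaving out 1 library gave -0.22 to 0.11 for Lrp4, -0.084 to 0.19 for Dok7, -0.11 to 0.041 for Rapsn and -0.033 to 0.16 for Utrn. The other 5 members below 0 kept that direction but moved too, with ranges of -0.55 to -0.052 for Colq, -0.36 to -0.031 for Agrn, -0.44 to -0.13 for Etv5, -0.50 to -0.23 for Ache and -0.16 to -0.031 for Prkar1a. Musk lay between 1.02 and 1.34. Leaving out 1 library gave -0.079 to 0.18 for Chrnb1, -0.15 to 0.15 for Chrne and -0.55 to 0.10 for Prkar1b. With TPM, Chrna1 was at -0.083, Chrnb1 at -0.24, Dag1 at -0.063, Prkacb at -0.12 and Pde4a at -0.033.

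Same-numbered libraries share only a number, and their deviations from the group means correlated at 0.0647 and 0.0952. With the replicate number as a block, Lrp4 was at 0.11, Prkar1b at 0.10 and Musk at 1.34 (adjusted p = 0.233 from limma), and 18 genes were called higher and 4 lower.

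Over all genes, the calls were 22 higher and 3 lower without the trend, 29 and 59 with TPM, and 14 and 3 at an adjusted p of 0.01 or less. Leaving out 1 library gave 6 to 55 higher and 3 to 16 lower, with the lowest count of higher calls without replicate 2 labelled skmNrip1-/- (6) and the next without replicate 1 (8), where the lone library is assumed to vary like the others. The causes were not tested. The alternatives for genes outside the members were chosen after seeing the data. The group labelled skmNrip1-/- has 2 libraries, and the absolute depth is unknown. The intervals of low genes such as Lrp4 and Colq reach down to -0.56 and -0.82 on the log2 scale. What sets their width was not tested.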
